A study of Saposhnikovia divaricata with 9 samples.

Results

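The 9 leaf libraries of Saposhnikovia divaricata, an umbellifer grown for its medicinal root, were searched for transcripts that stood lower in the group coded M than in both other groups, coded L and C. A transcript needed a lowest value of at least 5 FPKM among the 6 L and C libraries and a C mean below 1000 FPKM. That lowest value also had to be at least 1.5 times the sum of the transcript's highest M value and 1. FPKM is the number of sequenced fragments per kilobase of transcript scaled to the mapped fragments of the library. Of 63753 clusters in the table, 9 met the rule, and all 9 are described. A cluster in tables of this kind is a group of assembled sequences treated as 1 gene. The 9 members are numbered by the depth of the dip, from member 1, with the smallest ratio of its M mean plus 1 to the smaller of its L and C means plus 1, to member 9, with the largest.

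The study set untreated plants aged 48 days beside plants kept at 4 °C for 6 h or 48 h, in triplicate. The labels give the groups only as M, L and C, with 3 libraries each numbered 1 to 3, and do not tie a code to the control or to a length of cold. No condition was therefore read into the codes, and no difference below is given as an effect of cold or of time. All groups share the tissue, the species and the poly(A) RNA. Whether the replicates are separate plants is not stated, so the p-values cover the spread between libraries, which may be technical. The extraction protocol in the labels speaks of an animal organ and cannot describe these leaves. No leaf marker could be looked up, because the files do not pair cluster identifiers with gene names. For the same reason no function, sequence or position is given for any member. The members go by number, and identifiers are printed for 4 of them, those with the 2 deepest dips and the 2 largest log2 fold changes of L against C.

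In plants, chilling changes the abundance of many leaf transcripts within hours, through calcium signals and cascades of transcription factors. Some of these changes fade while the cold lasts and others persist. Transcripts of photosynthesis and growth are among those known to fall, and transcripts of protective proteins among those known to rise. This is general background and not a reading of the unnamed clusters below.

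The relative depth of the libraries, taken from ratios of low values, lay between 0.963 and 1.15 of C replicate 1. Clusters listed above 0 numbered 49498 to 51009 in M, 42138 to 46046 in L and 45032 to 47131 in C. The FPKM values of a library, which are already scaled to its mapped fragments, summed to between 863749 and 932785. Rank correlations over the 35314 tested clusters, those reaching 1 FPKM in 3 or more libraries, ran from 0.901 to 0.923 within M, from 0.863 to 0.892 within L and from 0.858 to 0.943 within C. The number of fragments behind a value is unknown, so no counting interval is given, and the lowest M values may rest on few fragments. The median log2 fold change over all tested clusters on the log2(FPKM + 1) scale was 0.55 in M against L, -0.03 in M against C and -0.56 in L against C.

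The 4 deepest dips reached levels near 0 in M. Members 1 to 4, which also met a margin of 2 in place of 1.5, had M values between 0.21 and 1.86 FPKM. The other 5 had M values between 1.73 and 19.24 FPKM. All 9 members were listed above 0 in all 3 M libraries. In bulk leaf RNA, fewer cells that carry a transcript and less of it per cell cannot be told apart.

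Member 1, Cluster-17261.30734, had 0.47, 1.05 and 1.86 FPKM in the M libraries, against 26.73, 9.76 and 17.65 FPKM in L and 18.98, 14.43 and 13.22 FPKM in C. Every M value was far below every other value, and the L and C values overlapped. The means were 1.127 ± 0.698 FPKM in M, 18.05 ± 8.49 FPKM in L and 15.54 ± 3.04 FPKM in C (SD, n = 3 each), so the L values spread most. On the log2(FPKM + 1) scale, member 1 was lower in M than in L by a log2 fold change of -3.11 (SE 0.36) and lower in M than in C by -3.0 (SE 0.36). The adjusted p-values were 0.000258 and 0.00122 (limma). The rule chose members on these M contrasts, so here and below the fits of M against L and M against C describe the members and do not test them.

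Member 2, Cluster-17261.19747, was the lowest of all members in M, with 0.23, 0.52 and 0.23 FPKM in the M libraries, against 5.92, 6.82 and 7.44 FPKM in L and 9.08, 7.51 and 10.67 FPKM in C. It was the single member with all 3 M values below 1 FPKM. Its M mean was 0.0486 of its L mean and 0.036 of its C mean. All 3 L values lay below all 3 C values, narrowly, and the log2 fold change of L against C was -0.38 (SE 0.20, limma adjusted p = 0.138).

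Member 3 had 1.70, 1.62 and 1.24 FPKM in M, against 11.75, 11.09 and 13.76 FPKM in L and 15.62, 15.19 and 16.83 FPKM in C. It had the widest margin of the members: its lowest L or C value was 4.11 times the sum of its highest M value and 1. Its replicates lay close together in every group, with standard deviations of 0.246 FPKM in M, 1.39 FPKM in L and 0.85 FPKM in C. As in member 2, every L value was below every C value, with a log2 fold change of L against C of -0.36 (SE 0.16, limma adjusted p = 0.0855).

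Member 4, Cluster-17261.11101, had 1.32, 1.61 and 0.21 FPKM in M, against 12.40, 21.83 and 18.52 FPKM in L and 5.25, 8.34 and 5.52 FPKM in C. The 3 groups did not overlap: M was lowest and L highest. Its L mean of 17.58 ± 4.78 FPKM was 2.76 times its C mean of 6.37 ± 1.71 FPKM (SD, n = 3 each). Its log2 fold change was -3.22 (SE 0.34) in M against L, the lowest of the members in that comparison, and -1.90 (SE 0.34) in M against C.

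Member 5 was as steady in M as it was variable elsewhere. It had 11.59, 12.41 and 12.71 FPKM in M, against 55.15, 70.22 and 33.03 FPKM in L and 28.92, 20.82 and 76.55 FPKM in C. The coefficient of variation was 4.74% in M, 35.4% in L and 71.5% in C, and C replicate 3 stood far above the other C libraries. Its fall in M against C, -1.48 (SE 0.44, log2), had a limma adjusted p of 0.048, just under the threshold of 0.05. That call was lost in 13 of 16 other settings, among them those without M replicate 1, 2 or 3, L replicate 1 or 2, or C replicate 1 or 3, with adjusted p-values up to 0.126 over the 16 settings. In M against L it was -1.96 (SE 0.44, limma adjusted p = 0.00648).

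Member 6, Cluster-17261.13841, had 2.23, 1.73 and 3.0 FPKM in M, against 14.95, 6.89 and 16.97 FPKM in L and 8.73, 6.69 and 7.28 FPKM in C. L replicate 2 lay at the level of C, while the other L libraries lay above it. The log2 fold change was -2.00 (SE 0.31) in M against L and -1.38 (SE 0.31) in M against C. The adjusted p-value of M against C was 0.0176 (limma). That call was lost without M replicate 1, M replicate 2 or C replicate 1 and with a pseudocount of 5, and the adjusted p ran from 0.00363 to 0.0647 over the 16 settings.

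Members 7, 8 and 9 had the shallowest dips. Member 7 had 6.74, 9.23 and 7.71 FPKM in M, against 23.69, 22.48 and 19.56 FPKM in L and 18.21, 21.78 and 23.79 FPKM in C. Its L and C values covered the same range, and its mean in L was 1.03 times its mean in C. Member 8 had 19.24, 18.42 and 13.85 FPKM in M, against 34.06, 38.67 and 30.91 FPKM in L and 54.55, 30.47 and 66.48 FPKM in C. C replicate 2 was the lowest of its C libraries and lay just below the lowest L value. Member 9 had 17.16, 18.19 and 14.41 FPKM in M, against 35.81, 34.79 and 34.57 FPKM in L and 30.22, 29.95 and 31.08 FPKM in C. It was the most even member outside M, with a coefficient of variation of 11.8% in M, against 1.89% in L and 1.94% in C, and every L value lay above every C value.

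**Figure D1:**
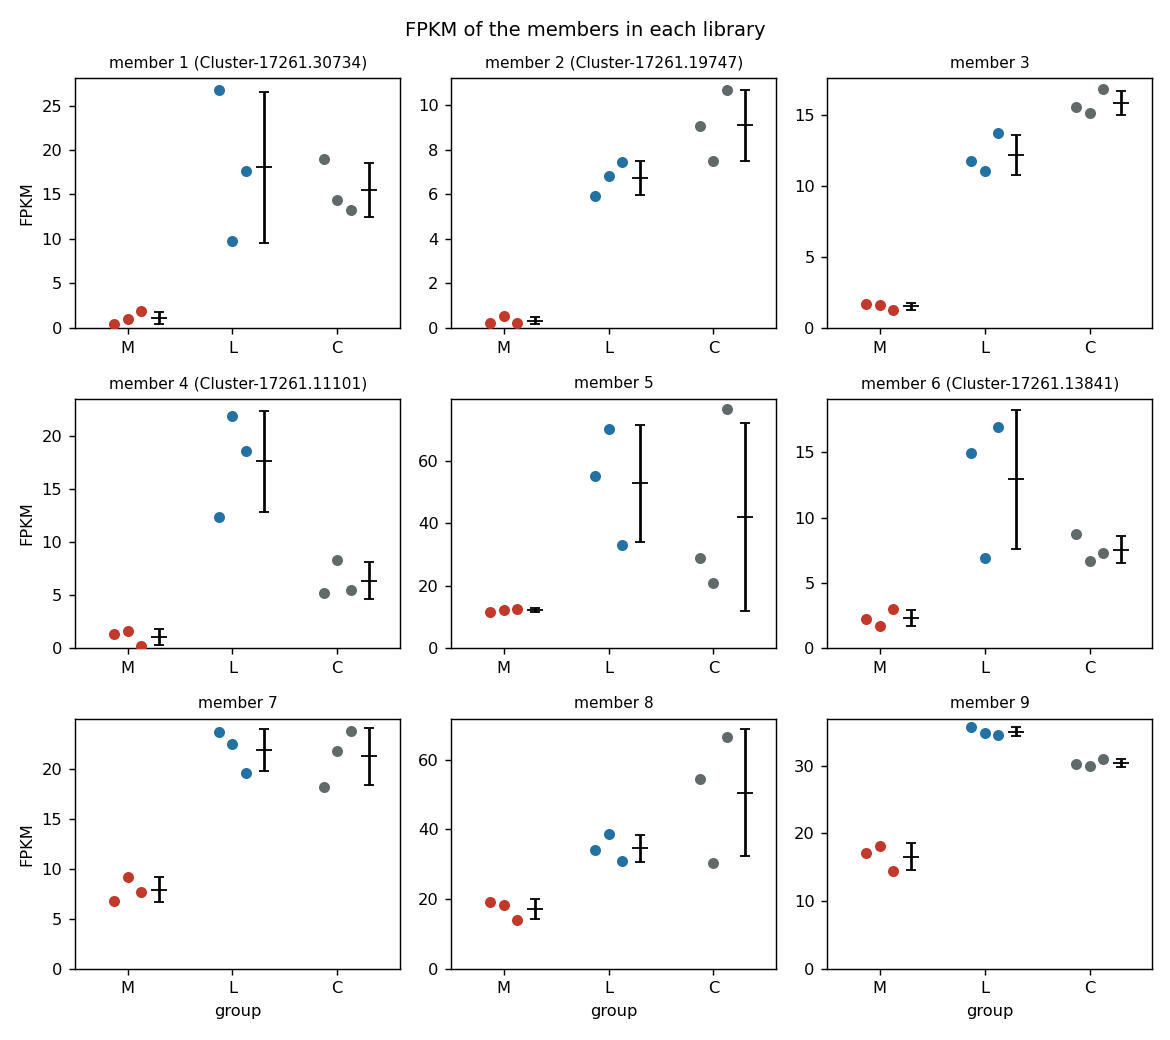
Each panel shows 1 member: points are the FPKM values of the 3 libraries of M, L and C, and the bar beside them is the mean ± SD (n = 3). The M points lie below all L and C points in every panel, as the rule requires, while L lies above C in members 4 and 9, below it in members 2 and 3 and overlaps it in the other 5.

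A cluster this low in M and yet present in all L and C libraries was uncommon. Of 9010 clusters that met the 5 FPKM floor and the limit on the C mean, the lowest L or C value was at least 1 times the highest M value plus 1 in 222, or 2.46%. The median of this ratio was 0.485. At the rule's margin of 1.5 or more there were 9 clusters, and at 2 or more there were 4. Just inside it were member 9 at 1.56, member 5 at 1.52 and member 8 at 1.51. The nearest clusters outside had ratios of 1.49, 1.46 and 1.44. The first of those had means of 22.42 ± 7.18 FPKM in M, 83.57 ± 43.2 FPKM in L and 81.98 ± 29.7 FPKM in C (SD, n = 3 each), and it missed the margin by a small step.

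**Figure D2:**
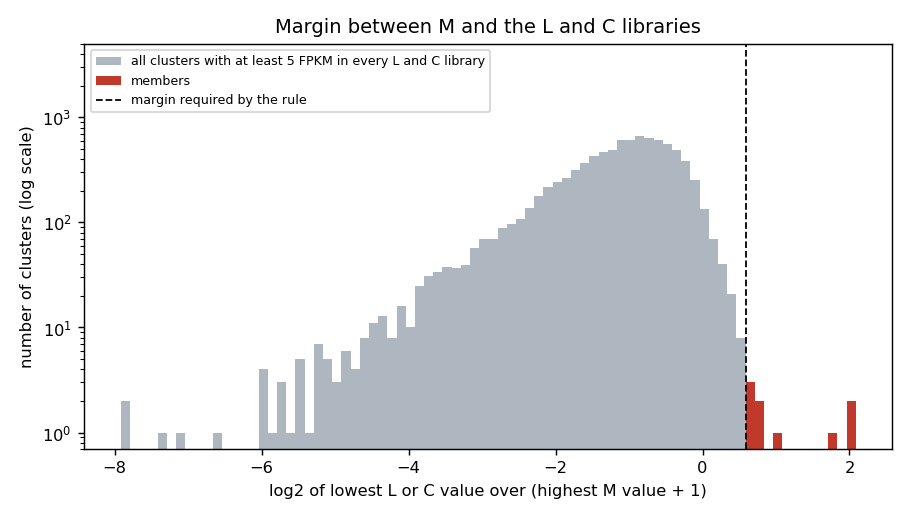
The histogram gives the number of clusters (log scale) by the log2 ratio of the lowest L or C value to the highest M value plus 1, over 9010 clusters, with the 9 members in red. The members form the thin right edge, and members 1 to 3, with ratios of 3.41, 3.89 and 4.11, lie apart from the other 6.

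The reverse pattern was met more often. Against 9 clusters that dipped in M, 326 peaked there by the mirrored rule. That rule asks a lowest M value of at least 5 FPKM, with the same limit on the C mean. The lowest M value must also be at least 1.5 times the sum of the highest L or C value and 1. The floor thus applies to the 3 M libraries for a peak and to the 6 L and C libraries for a dip. The counts were therefore drawn from unlike sets, and a peak may come from a cluster absent in L and C. The gap was narrower when the libraries were rescaled, and the cause was not tested. Quantile normalization gave 21 dips and 224 peaks, and equal medians in all libraries (median scaling) gave 43 and 141. Of the 9 members, 8 still met the rule after quantile normalization and 5 after median scaling. No test was made of the difference between these counts.

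The fit across all 35314 tested clusters, which all 9 members entered, placed the dips beside those of other clusters. In M against L, 8 members were called lower by limma (at least 2-fold, with an adjusted p below 0.05), where 5.99% of all tested clusters were. The exception was member 8, at -0.98 (SE 0.27, log2, limma adjusted p = 0.0175), which missed the fold threshold and passed it without M replicate 1, M replicate 2 or L replicate 3, with a pseudocount of 0.1, and after quantile normalization (-1.25) or median scaling (-1.87). After either scaling all 9 members were called lower in M than in L. Over all tested clusters that call was made for 2117 as deposited, 3958 after quantile normalization and 5380 after median scaling. In M against C, 8 members were called lower, where 4.71% of all tested clusters were (1662 clusters, and 1100 without M replicate 1), and the exception was member 9, at -0.84 (SE 0.13, log2, limma adjusted p = 0.00377). With the adjusted p alone, all 9 were lower in both, against 8.54% of all tested clusters for L and 8.25% for C. The call of member 9 in M against L was lost without M replicate 3 and with a pseudocount of 5, and that of member 4 in M against C with a pseudocount of 5. In both comparisons together, 7 members were called lower, among 51 clusters in all or 0.144%. Values of M below all values of L and C, which every member has by the rule, were found in 1.74% of tested clusters. The median log2 fold change of the members was -2.00 in M against L and -1.48 in M against C, with medians of 0.55 and -0.03 over all tested clusters.

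The rule fixed the side of M but not the order of L and C, although it used the values of both. Between these groups the members went different ways. In L against C, 1 member was called higher by limma, where 10.2% of all tested clusters were, and 0 were called lower, where 30.5% were. Both shares cover clusters without the rule's floor in L and C, so they do not come from a like set. At an unadjusted p below 0.05 the counts of members were also 1 and 0. No share over all tested clusters is given at that threshold, so these counts are not compared with one. The called member was member 4, Cluster-17261.11101, with a log2 fold change of 1.32 (SE 0.34, limma adjusted p = 0.00888). Its adjusted p ran from 0.000774 to 0.0693 over the 16 other settings, and the call was lost with a pseudocount of 0.1 or 5. Next came member 6, Cluster-17261.13841, at 0.62 (SE 0.31, limma adjusted p = 0.122). At the other end, member 8 was at -0.47 (SE 0.27, limma adjusted p = 0.176). Without C replicate 3, member 5 was also called higher in L, at 1.01.

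A positive log2 fold change in L against C was found for 6 of the 9 members, where 34.4% of the 9010 clusters with the same floor did. In members 4 and 9 every L value exceeded every C value, against 14.3% of all tested clusters. In members 2 and 3 every L value was below every C value, against 43.8% of all tested clusters. The 14.3% and 43.8% also cover clusters without the rule's floor. These directions depended on the scaling. Members with a positive value numbered 8 after quantile normalization, of which members 4 and 6 were called, and 9 after median scaling, of which members 4, 5, 6 and 9 were called. Over all tested clusters, calls higher in L numbered 3599 as deposited, 5310 after quantile normalization and 6636 after median scaling. The median log2 fold change of all tested clusters moved too, from -0.56 to -0.13 after quantile normalization and to 0.04 after median scaling. With the median log2 fold change of all tested clusters, -0.56, taken as the baseline, every member lay above it as deposited. The 9010 clusters with the same floor had a median of -0.38. Against that median member 8 lay lower, at -0.47, and member 2 was level with it, at -0.38. A cluster low in L had less chance to meet the rule, which asks that L stand well above M.

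**Figure D3:**
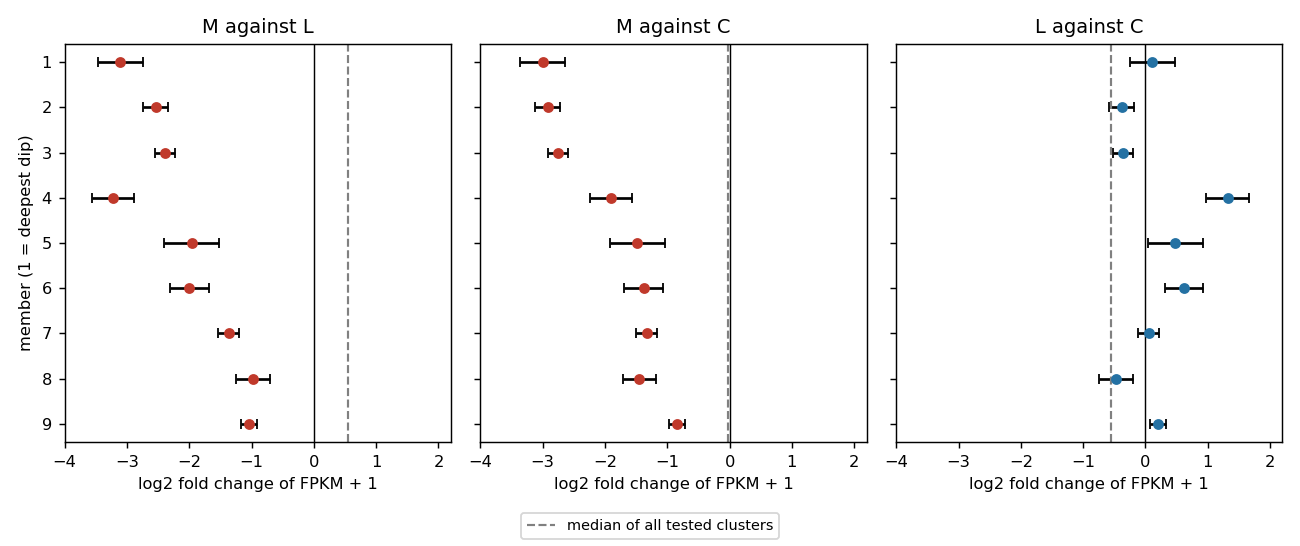
Log2 fold changes of FPKM + 1 are shown for the 9 members (points, with the standard error from limma) in M against L, M against C and L against C. The dashed line is the median of all tested clusters. The members lie left of 0 in both M panels, from -3.22 to -0.98 and from -3.0 to -0.84, and on both sides of 0 in L against C, from -0.47 to 1.32.

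Ranks within a library do not move with a single scaling factor. Each value was therefore also expressed as the share of tested clusters with a lower FPKM in the same library. Member 2 averaged 7.7% in M, 68.6% in L and 64.6% in C. Member 8, the highest in M, averaged 78.4% in M, 90.7% in L and 91.9% in C. All 9 members had all 3 M ranks below their L and C ranks, which the rule, made on the same values, all but fixes. The median over members was 32.9% in M, 83.1% in L and 76.9% in C. On average 8 members ranked higher in L than in C, where 45% of all tested clusters did, and member 8 was the exception. The 45% covers clusters without the rule's floor in L and C, so it is not a like set. The widest step between L and C was that of member 4, with 83.1% ± 4.2 in L and 56.1% ± 5.1 in C (SD, n = 3 each).

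**Figure D4:**
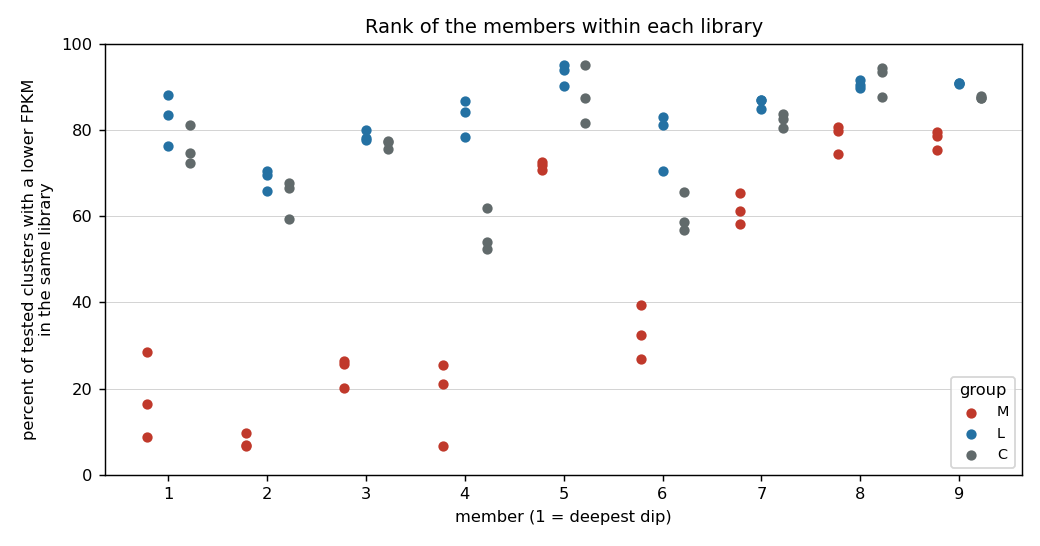
For each member the points give the percent of tested clusters with a lower FPKM in the same library, in M, L and C. Members 1 to 4 drop to below 30% in every M library, member 6 to between 27.0% and 39.3%, and members 5, 7, 8 and 9 stay above 58% in M.

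The 9 members together made up 0.00687% ± 0.0005 of all FPKM in M, 0.0237% ± 0.00186 in L and 0.0222% ± 0.00539 in C (SD, n = 3 libraries each). Their summed level was 60.68, 64.78 and 55.22 FPKM in the M libraries, against 220.46, 222.55 and 192.41 FPKM in L and 189.56, 155.18 and 251.42 FPKM in C. The sum was even within M and L and uneven within C, where C replicate 2 was lowest and members 5 and 8 varied most. The value that limited a member's margin was in C replicate 2 for 4 members, C replicate 1 for 2, L replicate 2 for 2 and L replicate 1 for 1. Outside their values the members shared little that the table records. All 9 carry the parent number 17261 in their identifier, but so do 99.9% of the 9010 clusters with the same floor, and no pair of their numbers is closer than 836.

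The choice of members was repeated with each library left out in turn, and the left-out library was then read for the clusters chosen from the other 8. Fewer libraries make the rule easier to meet, so more clusters were chosen each time, and they included all 9 members every time. By the full rule those 9 lie on the stated side in every library, so the clusters chosen beside them are given separately. Without M replicate 1, 15 clusters were chosen. In 13 of them M replicate 1 too lay below every L and C value, 4 of 6 when the members are left aside. For M replicate 2 this held for 16 of 18, or 7 of 9 without the members, and for M replicate 3 for 12 of 13, or 3 of 4. The same was read over all clusters meeting the floor and the limit on the C mean in the other 8 libraries. It held in 8.75%, 8.89% and 10.5% of those for M replicates 1 to 3. The left-out L library exceeded every M value in 12 of 15, 18 of 23 and 10 of 10 chosen clusters for replicates 1 to 3, or 3 of 6, 9 of 14 and 1 of 1 without the members. The left-out C library did so in 14 of 16, 16 of 27 and 11 of 11, or 5 of 7, 7 of 18 and 2 of 2 without the members. Over all clusters meeting the floor and the limit, the shares were 28.2%, 26.3% and 28.3% for L replicates 1 to 3. For C replicates 1 to 3 they were 42.8%, 43.3% and 48.1%. The clusters beside the members are those that the left-out library kept from meeting the full rule, so their counts are low by construction and do not rank the libraries.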

How the data were processed

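Poly(A) RNA of leaves was sequenced in 9 libraries, 3 for each of the codes M, L and C. The deposited values are FPKM with 2 decimals, which the authors calculated for each cluster in each library, per the file headers. How reads were aligned, assembled, counted and annotated is not given in the sources used here. The mouse build that the labels list cannot apply to a plant and was not used.

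Of 63753 clusters, the 35314 that reached 1 FPKM in 3 or more libraries were tested. Values were transformed to log2(FPKM + 1), which understates changes of low clusters. All 9 libraries entered 1 linear model with a term per group (limma 3.58.1, R 4.3.3, trended variances), and p-values were adjusted over all tested clusters (Benjamini-Hochberg). A cluster was called when it had an adjusted p below 0.05 and differed at least 2-fold on this scale. The fit was tested on simulated data. The members and the tests were chosen with earlier results of these data known. By identifier, the rule named the 2 members with the deepest dip and the 2 with the largest log2 fold change in L against C. Other members go by number. Alternatives were other scalings, pseudocounts, margins and filters, a replicate block, fits of the compared groups alone and leaving out each library. Relative depth is the inverse of the most frequent ratio of low values in a library to those in C replicate 1. It is a measure set after the data were seen.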

Additional observations from a re-analysis of the deposited data

How the results depend on the processing

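The number of clusters meeting the rule was 21 after quantile normalization, 43 after median scaling, 17 and 1 with pseudocounts of 0.1 and 5 in the rule, 42 with a narrower margin and 4 with a margin of 2, and 10 to 27 with 1 library left out (15 and 18 without M replicates 1 and 2, 15 and 23 without L replicates 1 and 2, 16 and 27 without C replicates 1 and 2). Of 8 members lower in M than in C, 5 were called with a pseudocount of 5. Over all tested clusters calls lower in M than in C numbered 1662 as reported and 654 with that pseudocount. Members higher in L than in C numbered 1 as reported, 0 with a pseudocount of 0.1 or 5, 2 after quantile normalization, 4 after median scaling and 1 to 2 with a library left out. Over all tested clusters such calls numbered 3599 as reported, and 4007 and 2177 with pseudocounts of 0.1 and 5. They numbered 5310 after quantile normalization and 6636 after median scaling. In L against C the log2 fold change turned to 0.24 and 0.13 for members 2 and 3 after quantile normalization and to 0.44, 0.50 and 0.42 for members 2, 3 and 8 after median scaling. With 1 library left out it ran from -0.21 (without L replicate 1) to 0.47 for member 1, and from -0.06 (without C replicate 1; -0.01 without L replicate 1) to 0.13 for member 7. As deposited, the median FPKM of the tested clusters in a library was 2.22 to 2.81 in L and 4.33 to 4.98 in C. In M that median was 4.75 to 4.81. The cause of the changes in sign was not tested.

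Same-numbered libraries of different groups correlated at -0.060 to 0.031 in their deviations from the group means. Different-numbered ones correlated at -0.052 to 0.076, so no effect shared by number was seen. Whether same-numbered libraries were paired in the experiment is not stated, and these correlations cannot settle it. With the replicate block 7 members were lower in M than in C, 8 lower in M than in L and 1 higher in L than in C. Over all tested clusters the same calls numbered 1489, 2098 and 3589 with the block. Without the block they numbered 1662, 2117 and 3599. Depth limits the lowest M values, whose fragment numbers are unknown.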
